A study of Drosophila melanogaster with 14 samples.

Results

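The 9 genes described here build, modify or release the heparan sulfate proteoglycans that carry morphogens between cells. They are the glypican genes dally and dlp, the syndecan gene Sdc, the chain polymerase genes ttv, botv and sotv, the sulfotransferase gene sfl, and Notum and Sulf1, which encode secreted enzymes. They were chosen by name, and all 9 of 9 had a row among the 17807 gene IDs of the RNA count table and entered the test. The RNA came from dissected wing imaginal discs of wandering Drosophila melanogaster larvae in the third instar. The disc is the epithelial sac from which the adult wing and the dorsal thorax, the notum, develop. Larvae were kept at 25 degrees. One group, called nub1 here, was yw larvae carrying the allele nub[1] of the POU domain gene nubbin, and the other, called wildtype, was yw larvae without it, so that the yw background was shared by both. Each group had 3 libraries. The labels do not tie them to separate animals or crosses, so the p-values rest on a spread between libraries that could be purely technical. The labels do not say whether the allele removes all nub function.

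Heparan sulfate is a sugar chain that is built in the Golgi on a few core proteins and then trimmed and sulfated. At the cell surface its sulfated stretches bind secreted ligands, among them Wingless, Decapentaplegic, Hedgehog and the Unpaired cytokines. In the wing disc, the glypicans Dally and Dlp are known to act as coreceptors and to shape how far these ligands spread. Loss of the chain polymerases is known to hinder that spread.

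Total counts were 72134981 to 83448836 in nub1 libraries and 58434785 to 82407049 in wildtype libraries. Both nub and its neighbour pdm2 were low in the nub1 libraries, nub at 10.9 ± 3.09 CPM in nub1 and 329 ± 12.2 CPM in wildtype discs, and pdm2 at 0.107 ± 0.0426 CPM in nub1 and 57.1 ± 0.394 CPM in wildtype discs (SD, n = 3 each; CPM, counts per 1000000 after TMM scaling). Of 9186 genes tested with edgeR's quasi-likelihood test, 48.3% were called at an adjusted p under 0.05, 24.4% as higher and 23.9% as lower in nub1. The median log2 fold change of all tested genes was -0.003. Replicate 3 stood apart from the others in nub1, where the chi-square per degree of freedom against replicates 1 and 2 was 32.1 and 24.7, while that between replicates 1 and 2 was 4.15. Replicate 3 did not stand apart in wildtype, with 15.6 and 17.7 against replicates 1 and 2 and 16.2 between those. Because of nub1 replicate 3, the results that follow were also computed with both libraries numbered 3 left out.

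Changes of the 9 genes were small. With 4 called lower (dlp, Sdc, sotv and Sulf1), 0 called higher and 5 not called (dally, ttv, botv, sfl and Notum), the count of lower calls stood against a background of 23.9% over all tested genes, and that of higher calls against 24.4%. At an unadjusted p under 0.05 in edgeR 1 of the 9, dally, was higher, and the same held in DESeq2 and limma-voom. After adjustment DESeq2 and limma-voom, like edgeR, called 0 higher. All 9 genes differed by less than 1.5-fold, as did 81.3% of the tested genes. The median log2 fold change of the 9 was -0.14, and their median absolute log2 fold change of 0.14 was close to that of all tested genes (0.15). Without both libraries numbered 3, 4 were lower and 0 higher. Whole discs were sequenced, so fewer cells of a type and less RNA per cell cannot be told apart. The 9 genes together took 0.14 to 0.145% of the raw counts in nub1 libraries and 0.144 to 0.154% in wildtype libraries, ranges that overlap. After TMM scaling the ranges of their sum did not overlap, at 1371.5 to 1448.0 CPM in nub1 and 1475.6 to 1547.2 CPM in wildtype libraries.

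**Figure D1:**
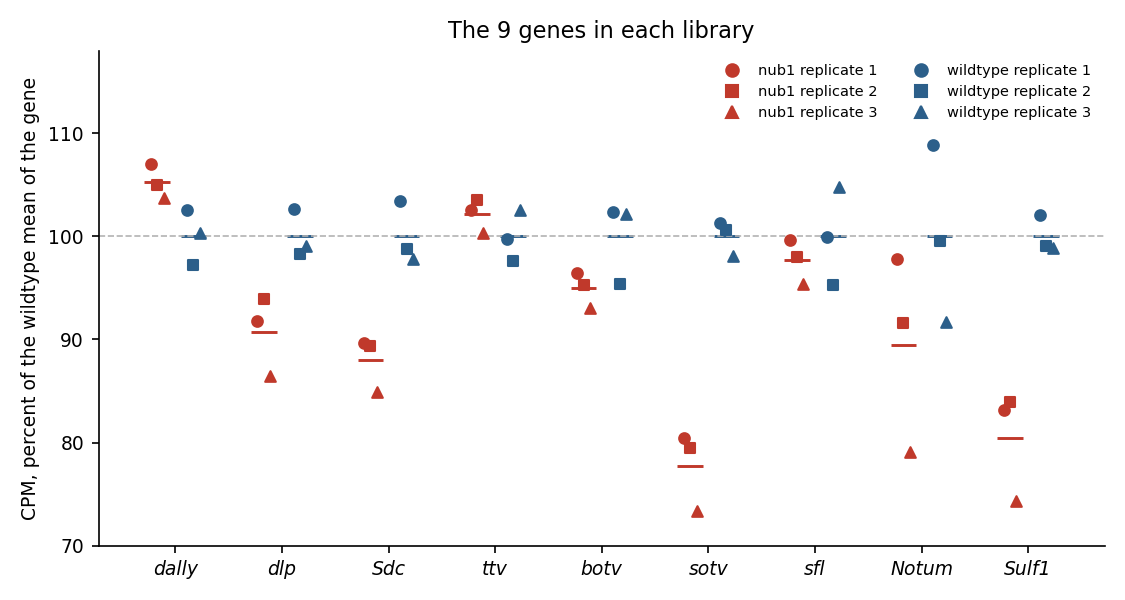
Each point is 1 library's CPM for 1 of the 9 genes as a percent of that gene's wildtype mean (dashed line at 100), with nub1 in red left of wildtype in blue; bars are group means, shapes give the replicate number, and the axis does not start at 0. All 3 nub1 libraries lie below all 3 wildtype libraries for dlp, Sdc, sotv and Sulf1, and above them for dally.

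**Figure D2:**
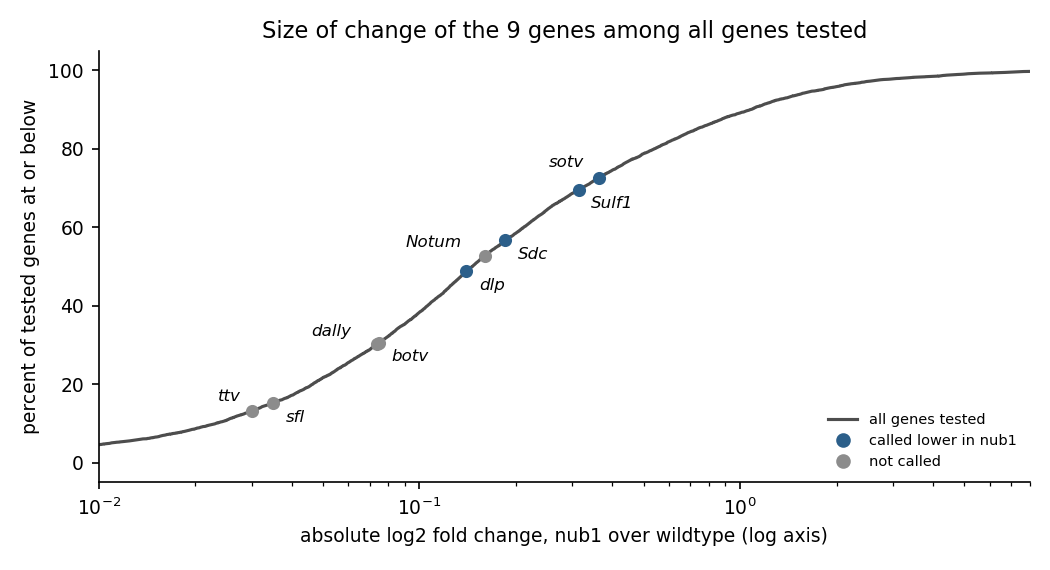
The line gives the percent of the 9186 tested genes whose absolute log2 fold change is at or below the value on the log axis, and points mark the 9 genes. The largest change among them, that of sotv, is exceeded by 27.3% of tested genes, and the smallest, that of ttv, by 86.8%.

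Of the core proteins, the glypicans Dally and Dlp are held to the membrane by a lipid anchor, whereas Syndecan spans it. For dlp (FBgn0041604, dm6 chromosome arm 3L, 14632601 to 14671609) the nub1 libraries had 186, 191 and 175 CPM and the wildtype libraries 208, 199 and 201 CPM. All nub1 values lay below all wildtype values, the lowest being nub1 replicate 3. It fell by 9.25% (log2 fold change -0.14 ± 0.04, SE, 95% interval -0.22 to -0.06; edgeR adjusted p = 0.0112). Counts of Sdc (FBgn0010415, 2R, 21392402 to 21481176) were 400, 398 and 378 CPM in nub1 libraries and 461, 440 and 436 CPM in wildtype libraries, again without overlap. Sdc, whose product is known as a partner of the guidance ligand Slit, fell by 12% (log2 fold change -0.18 ± 0.03; edgeR adjusted p = 0.00194).

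The other glypican gene lay on the other side of 0. For dally (FBgn0263930, 3L, 8827505 to 8891192) the nub1 libraries had 495, 486 and 480 CPM and the wildtype libraries 474, 450 and 464 CPM. All nub1 values were above all wildtype values, but the log2 fold change of 0.07 ± 0.03 (95% interval 0.01 to 0.14) missed the threshold, its adjusted p in edgeR being 0.0639. With the replicate number as a block its log2 fold change was again 0.07 and it passed (edgeR adjusted p = 0.0281). It also passed with upper quartile scaling (0.0208), with library sizes only (0.0226) and without wildtype replicate 1 (edgeR adjusted p = 0.0326). Groups did not overlap for 5 of the 9 genes, 1 with all nub1 libraries above (29.7% of the tested genes) and 4 with all below (30.3%), beside 60.0% of the tested genes in either direction.

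Within a library, the ratio of dally to dlp reads does not depend on the scaling. It was 2.66, 2.55 and 2.73 in nub1 libraries and 2.28, 2.26 and 2.31 in wildtype libraries, with means of 2.65 ± 0.093 in nub1 and 2.28 ± 0.027 in wildtype libraries (SD, n = 3 each). Every nub1 library had relatively more dally reads than any wildtype library, a shift of 0.22 on the log2 scale. The genes differ in length, so the ratio is one of reads and not of transcripts. Against Sdc, the dally ratio was 1.24, 1.22 and 1.27 in nub1 libraries and 1.03, 1.02 and 1.06 in wildtype libraries. The ratio of dlp to Sdc moved much less, averaging 0.469 ± 0.008 in nub1 and 0.455 ± 0.0051 in wildtype libraries.

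Among the chain polymerases, which add the alternating sugars of heparan sulfate, sotv differed from its partners. Its product and that of ttv are the fly counterparts of the vertebrate EXT copolymerases and are known to act as a complex, while Botv is known to add the first N-acetylglucosamine of the chain. For sotv (FBgn0029175, 2R, 16145904 to 16148719) the nub1 libraries had 21.6, 21.3 and 19.7 CPM and the wildtype libraries 27.2, 27 and 26.3 CPM. The groups were well separated, and the gap between them exceeded the spread within either. This was the largest change of the 9, and sotv fell by 22.2% (log2 fold change -0.36 ± 0.04, 95% interval -0.46 to -0.26; edgeR adjusted p = 0.000197).

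The other polymerase genes were not called. Counts of ttv (FBgn0265974, 2R, 14526267 to 14587917) ranged over 74.4 to 76.9 CPM in nub1 and 72.5 to 76.1 CPM in wildtype libraries, and the log2 fold change of 0.03 ± 0.03 (95% interval -0.03 to 0.09) did not pass (edgeR adjusted p = 0.414). Those of botv (FBgn0027535, 2R, 19129589 to 19133706) ranged over 52 to 53.9 CPM in nub1 and 53.3 to 57.2 CPM in wildtype libraries. Its log2 fold change was -0.08 ± 0.03 (95% interval -0.15 to 0.00; edgeR adjusted p = 0.105), and it was called without wildtype replicate 2 (-0.11; edgeR adjusted p = 0.024). For both genes the groups overlapped, and the intervals ran from -2.39% to 6.8% for ttv and from -10.2% to 0.264% for botv. The read ratio of sotv to ttv was 0.283, 0.277 and 0.264 in nub1 libraries and 0.367, 0.372 and 0.345 in wildtype libraries. That of sotv to botv averaged 0.393 ± 0.013 in nub1 and 0.481 ± 0.023 in wildtype libraries (SD, n = 3 each), so that sotv took a smaller share beside either partner in every nub1 library.

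The sulfotransferase gene sfl (FBgn0020251, 3L, 6495680 to 6550104) encodes the enzyme that removes acetyl groups from the chain and puts sulfate in their place, a step on which later sulfation is known to depend. It had 58.8, 57.8 and 56.3 CPM in nub1 libraries and 59, 56.2 and 61.8 CPM in wildtype libraries. The groups overlapped. Its log2 fold change was -0.03 ± 0.04 (95% interval -0.12 to 0.05; edgeR adjusted p = 0.479), or from -8.09% to 3.67%. The log2 fold change was 0.02 without both libraries numbered 3.

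Sulf1 and Notum act outside the cell. Sulf1 removes sulfate from finished chains and is known to alter their affinity for ligands, and Notum is a secreted esterase known to inactivate Wingless by cutting off its lipid and to depend on glypicans for its place at the cell surface. For Sulf1 (FBgn0040271, 3R, 16310542 to 16339575) the nub1 libraries had 103, 104 and 91.8 CPM and the wildtype libraries 126, 122 and 122 CPM. All nub1 values were lower, with nub1 replicate 3 the lowest. It fell by 19.6% (log2 fold change -0.31 ± 0.05, 95% interval -0.42 to -0.21; edgeR adjusted p = 0.000639), and the read ratio of Sulf1 to sfl was 1.72 ± 0.084 in nub1 and 2.1 ± 0.11 in wildtype libraries (SD, n = 3 each).

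Notum (FBgn0044028, 3L, 16023480 to 16032752) varied most between libraries of 1 group. It had 54.1, 50.6 and 43.7 CPM in nub1 libraries and 60.2, 55 and 50.7 CPM in wildtype libraries. The groups overlapped, and the coefficient of variation was 10.6% in nub1 and 8.6% in wildtype libraries, against 1.58 to 6.65% in nub1 and 1.68 to 4.78% in wildtype libraries for the other 8 genes. Its log2 fold change of -0.16 ± 0.10 did not pass (95% interval -0.40 to 0.08; edgeR adjusted p = 0.226). Libraries with the same replicate number moved together, and the log2 ratio of nub1 to wildtype was -0.15, -0.12 and -0.21 for numbers 1, 2 and 3. With the replicate number as a block the log2 fold change stayed at -0.16 with an SE of 0.029, and Notum was called lower (edgeR adjusted p = 0.00188). The libraries numbered 3 had the lowest Notum level in each group. Without both of them the unblocked log2 fold change was -0.14 (edgeR adjusted p = 0.0567). It was -0.08 without nub1 replicate 3 and -0.09 without wildtype replicate 1, and -0.23 without nub1 replicate 1, with no call in any of these.

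**Figure D3:**
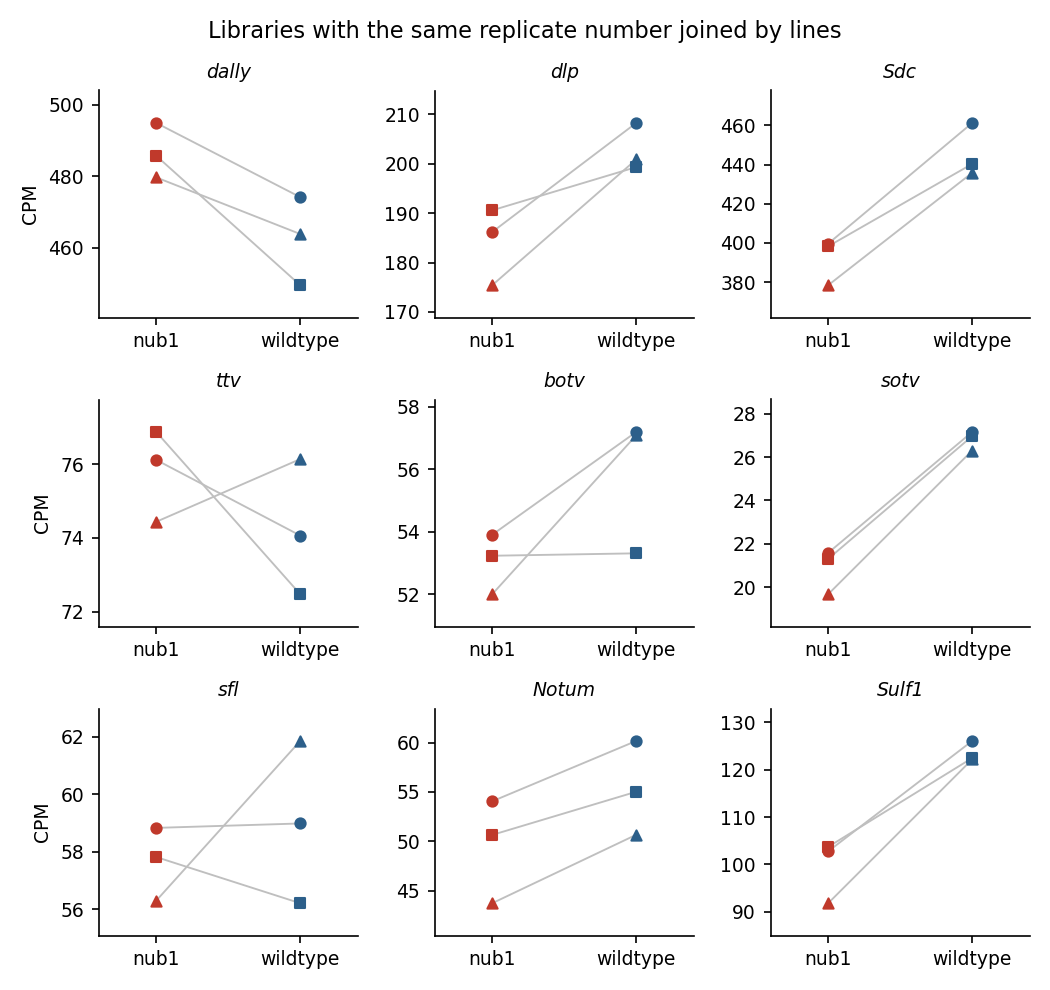
CPM of each of the 9 genes in the 3 nub1 libraries (red, left) and the 3 wildtype libraries (blue, right), with lines joining libraries of the same replicate number (circle 1, square 2, triangle 3); the axes differ between panels and do not start at 0. For Notum the 3 lines run nearly parallel, with log2 ratios of -0.15, -0.12 and -0.21, whereas those of ttv and sfl cross.

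Same-numbered libraries gave the same sign in all 3 pairs for dally (nub1 higher) and for dlp, Sdc, botv, sotv, Notum and Sulf1 (nub1 lower). For botv, though, the log2 ratio of the pair numbered 2 was -0.00, or almost no difference. For ttv 2 of 3 pairs were higher in nub1, and for sfl 2 of 3 were lower, the pair numbered 1 at -0.00. Some of these genes share positions with others in the RefSeq annotation, and whether strand was used in the counting is unknown here. LamC lies within ttv and had 95.2 CPM in nub1 and 46.2 CPM in wildtype discs. SF2 overlaps Sulf1 by 633 bases and had 455 CPM in nub1 and 453 CPM in wildtype discs, and CysRS overlaps sotv by 3 bases. Whether reads of these neighbours entered the counts of ttv, Sulf1 or sotv was not tested.

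The pattern most like that of sotv was sought over all tested genes outside the 9. By the Pearson correlation of log2(CPM + 0.5) over the 6 libraries, the nearest were InR, the insulin receptor gene (r = 0.9995), CG15628 (0.9994) and CG14257 (0.9992). InR averaged 162 ± 17.9 CPM in nub1 and 294 ± 11.6 CPM in wildtype discs (SD, n = 3 each), a larger fall than that of sotv. The 6 libraries form 2 groups, each library's values share 1 scaling factor, and 11% of the tested genes had a correlation over 0.95 with sotv.

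Other enzymes of heparan sulfate synthesis were measured in the same libraries. Of 17 genes listed, 14 were tested, with 0 higher and 5 lower in nub1 and a median log2 fold change of -0.07, beside shares of 24.4% and 23.9% over all tested genes. At an unadjusted p under 0.05 in edgeR 1 was higher, GlcAT-S. After adjustment DESeq2 and limma-voom, like edgeR, called 0 higher. With library sizes only, and without nub1 replicate 1, edgeR called 1 higher. The 5 lower genes act along the pathway. The xylosyltransferase gene oxt, which starts the linker on the core protein, averaged 24.1 ± 0.613 CPM in nub1 and 28.5 ± 0.526 CPM in wildtype discs (log2 fold change -0.24 ± 0.04; edgeR adjusted p = 0.000657). The linker galactosyltransferase gene beta3GalTII averaged 4.87 ± 0.44 CPM in nub1 and 10.2 ± 0.262 CPM in wildtype discs. It fell by 52.4% (log2 fold change -1.07 ± 0.08; edgeR adjusted p = 7.33e-06), more than any of the 9. The glucuronyltransferase gene GlcAT-P, whose product is also known to act on other glycans, fell by 1.19 ± 0.23 on the log2 scale, with 2.58 ± 0.606 CPM in nub1 and 5.88 ± 1.3 CPM in wildtype discs (edgeR adjusted p = 0.00481). Elp5 overlaps oxt by 84 bases and had 40.9 CPM in nub1 and 38.2 CPM in wildtype discs.

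Both remaining lower genes of that list act on sulfation or on the sugar backbone. Papss, which makes the sulfate donor, averaged 34.2 ± 2.34 CPM in nub1 and 46.5 ± 3.26 CPM in wildtype discs (log2 fold change -0.44 ± 0.06; edgeR adjusted p = 0.000917). Hsepi, the epimerase gene, averaged 38.8 ± 2.38 CPM in nub1 and 50 ± 1.32 CPM in wildtype discs (log2 fold change -0.37 ± 0.05; edgeR adjusted p = 0.000249). The sulfotransferase genes Hs2st and Hs6st were not called, with log2 fold changes of -0.06 ± 0.04 and 0.04 ± 0.04. The UDP-glucose dehydrogenase gene sgl was not called either (-0.05 ± 0.05), and the linker genes beta4GalT7 and GlcAT-I were at -0.06 and -0.11. The genes not tested were the nucleotide sugar transporter gene frc, with 0 counts in all 6 libraries, Hs3st-A, with 3 counts over the nub1 and 4 over the wildtype libraries, and Hs3st-B, with 7 over the nub1 and 6 over the wildtype libraries. In the RefSeq annotation all 4255 bases of frc lie within Coq4, which itself had 0.0046 CPM in nub1 and 0.0099 CPM in wildtype discs. Whether reads of this overlap were counted for either gene was not tested, so the 0 of frc is a listed value and not a measured absence. For a gene whose reads are counted, 0 allows up to 0.036 to 0.0416 CPM in nub1 and 0.0364 to 0.0513 CPM in wildtype libraries (3 counts each, counting error only).

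Other proteoglycans and extracellular partners were listed beside the 9. Of 11 genes, 9 were tested, with 5 higher and 1 lower and a median log2 fold change of 0.17, beside shares of 24.4% higher and 23.9% lower over all tested genes. The basement membrane proteoglycan gene trol, the fly perlecan, rose to 859 ± 7.27 CPM in nub1, against 509 ± 19.1 CPM in wildtype discs (SD, n = 3 each; log2 fold change 0.76 ± 0.03; edgeR adjusted p = 3.38e-07). It thus rose while the membrane core protein genes dlp and Sdc fell and the third, dally (log2 fold change 0.07 ± 0.03), was not called. The chondroitin sulfate proteoglycan gene wdp rose by 37.6% and cv-2, whose product binds bone morphogenetic proteins, by 35.3%. Swim, which encodes a secreted Wingless-binding protein, averaged 7.19 ± 0.159 CPM in nub1 and 3.15 ± 0.137 CPM in wildtype discs. Vps35 overlaps Swim by 70 bases, at 166 CPM in nub1 and 179 CPM in wildtype discs. The 1 gene called lower was cv (log2 fold change -0.23 ± 0.03; edgeR adjusted p = 0.000614), a secreted partner of Decapentaplegic-type ligands. The Decapentaplegic range factor gene magu (-0.04 ± 0.03) and the Hedgehog cofactor gene shf (-0.02 ± 0.03) were not called, nor was kon (-0.01 ± 0.09). Magu and Shf are known to act with glypicans in the wing disc. Cow and tsg had at most 24 counts over a group and were not tested.

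**Figure D4:**
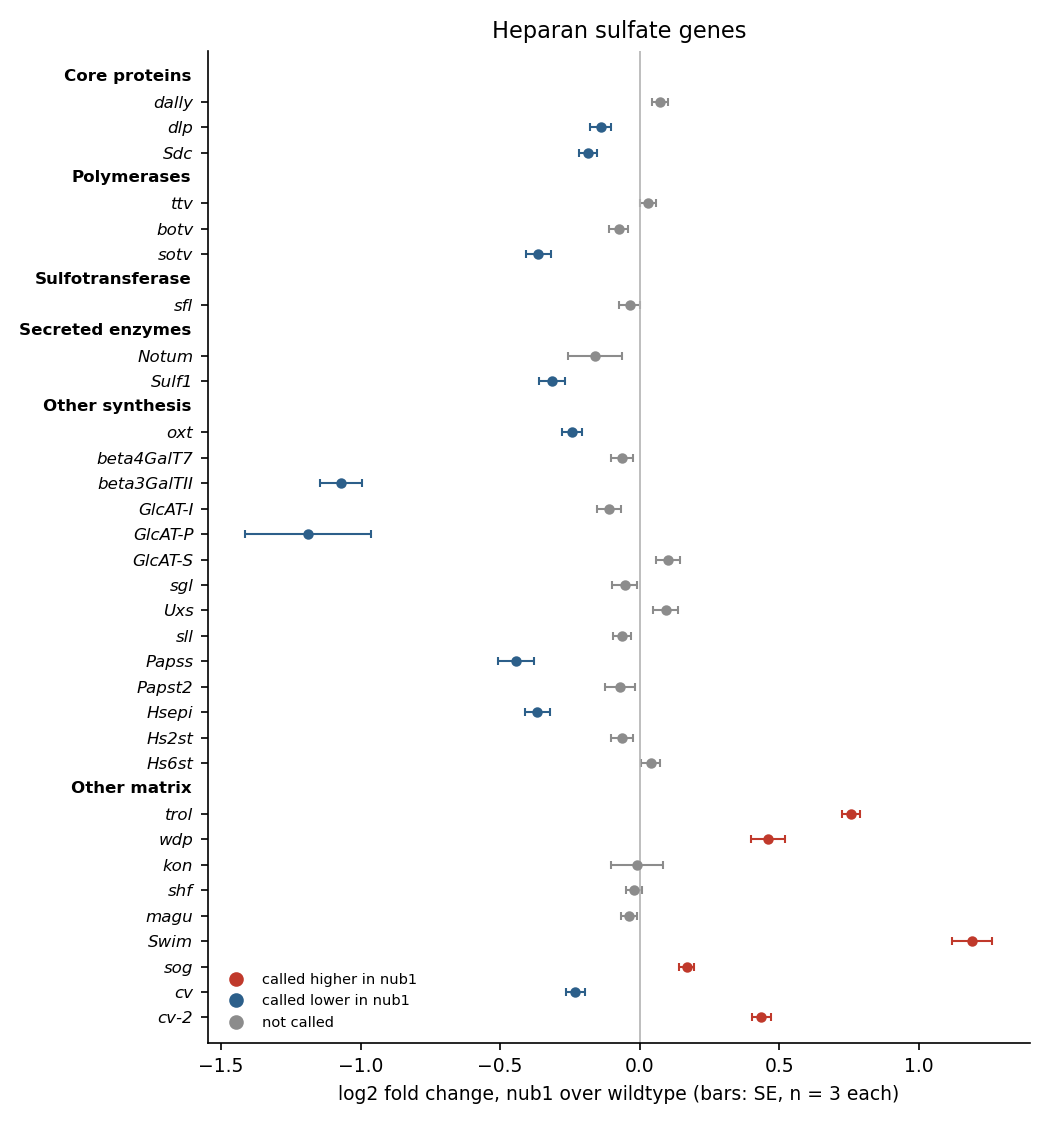
Log2 fold change of nub1 over wildtype with its SE for the 9 genes by role and for the tested members of the lists of other synthesis enzymes and of other matrix genes; red marks genes called higher in nub1, blue called lower and grey not called. None of the 9 reaches the size of beta3GalTII (-1.07) or trol (0.76).

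The ligands that heparan sulfate carries changed in both directions. Of 15 listed and tested, 6 were higher and 4 lower, with a median log2 fold change of -0.05 (24.4% higher and 23.9% lower over all tested genes). The Wnt gene wg, on which Notum acts, averaged 89.2 ± 8.41 CPM in nub1 and 120 ± 5.67 CPM in wildtype discs (log2 fold change -0.42 ± 0.07; edgeR adjusted p = 0.00288). Beside it, Notum took relatively more reads in nub1, with ratios of Notum to wg of 0.554, 0.568 and 0.541 in nub1 libraries and 0.487, 0.451 and 0.448 in wildtype libraries. Wnt2 fell by 60.5% and was the Wnt gene with the smallest adjusted p. The Hedgehog gene hh averaged 69.4 ± 2.09 CPM in nub1 and 81.1 ± 2.55 CPM in wildtype discs (log2 fold change -0.22 ± 0.03; edgeR adjusted p = 0.000709).

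In the other direction, dpp averaged 93.9 ± 1.47 CPM in nub1 and 88.4 ± 1.88 CPM in wildtype discs, with the log2 fold change at 0.09 ± 0.03 (edgeR adjusted p = 0.0247). That call was lost without nub1 replicate 1 or 3 or wildtype replicate 2 or 3 (edgeR adjusted p = 0.0755, 0.059, 0.0719 and 0.0909) and without both libraries numbered 3 (0.131). The FGF gene bnl rose by 0.30 ± 0.06 on the log2 scale. The cytokine genes upd1 (12.2 ± 0.913 CPM in nub1 and 6.6 ± 0.00806 CPM in wildtype discs) and upd3 (1.66 ± 0.208 CPM in nub1 and 0.68 ± 0.0609 CPM in wildtype discs) rose most among the 15 in fold.

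Receptors and release proteins of these ligands gave 6 higher and 2 lower calls of 15 tested, with a median log2 fold change of 0.05. Over all tested genes 24.4% were called higher and 23.9% lower. Called in either direction were 8 of 15, close to the 48.3% of all tested genes. The Wingless receptor genes went opposite ways: fz rose (log2 fold change 0.31 ± 0.03), with 267 ± 6.52 CPM in nub1 and 215 ± 1.06 CPM in wildtype discs, whereas fz2 fell (-0.14 ± 0.03; edgeR adjusted p = 0.00935), with 801 ± 20.9 CPM in nub1 and 880 ± 27.8 CPM in wildtype discs (SD, n = 3 each). The Wingless coreceptor gene arr rose (0.11 ± 0.03), as did the Hedgehog coreceptor gene ihog (0.20 ± 0.02), the cytokine receptor gene dome (0.14 ± 0.03) and the FGF receptor gene htl (0.67 ± 0.03), which is also a myoblast marker. Of the Decapentaplegic receptors, put fell (-0.23 ± 0.02), tkv rose (0.12 ± 0.04; edgeR adjusted p = 0.041) and sax was not called (0.03 ± 0.02). Target genes of the same ligands gave 4 higher and 8 lower calls of 13 tested, with a median log2 fold change of -0.23. These counts stood beside the same shares of 24.4% higher and 23.9% lower over all tested genes. Of these targets, Dll, vg, kn, salm, salr and bi are also wing pouch markers. By adjusted p the falls were led by kn, at 5.33 ± 0.457 CPM in nub1 and 55.2 ± 2.17 CPM in wildtype discs, and en, at 47.8 ± 1.1 CPM in nub1 and 93.6 ± 5.03 CPM in wildtype discs. By size sens came after kn (log2 fold change -2.42 ± 0.20), ahead of en (-0.97 ± 0.04) and Dll (-0.92 ± 0.07), and vg fell by 0.27 ± 0.03 on that scale. The 4 targets called higher were Socs36E (0.53 ± 0.06), brk (0.21 ± 0.03), bi (0.17 ± 0.03) and salm (0.13 ± 0.05).

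**Figure D5:**
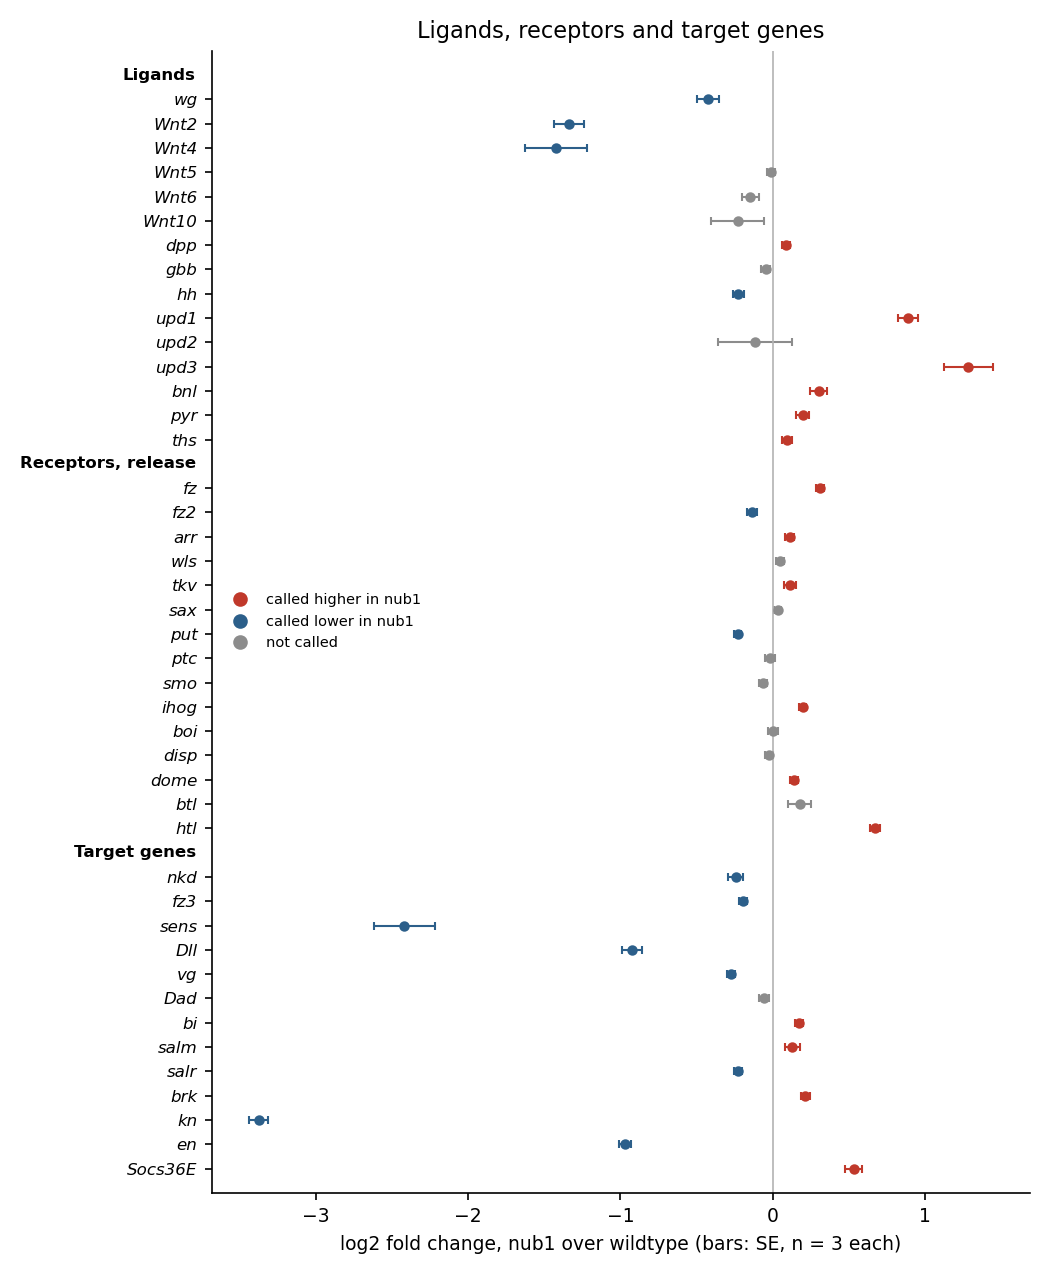
Log2 fold change of nub1 over wildtype with its SE for the tested ligands, receptors with release proteins, and target genes; red marks genes called higher in nub1, blue called lower and grey not called. Ligands range from -1.42 for Wnt4 to 1.28 for upd3, and target genes reach -3.38 for kn.

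Markers of disc regions and of other cell types were set beside these values, against 48.3% of all tested genes called in either direction. Of 11 wing pouch markers 2 were higher and 8 lower, kn and dve with the smallest adjusted p, and their summed level was 1924.1 to 2019.5 CPM in nub1 and 2534.5 to 2583.0 CPM in wildtype libraries. Among them vg, kn, Dll, salm, salr and bi were also counted with the target genes above, so these counts are not separate observations. Of 8 hinge markers 3 were higher and 4 lower, Doc1 and Doc2 with the smallest adjusted p (sum 3471.3 to 3619.4 CPM in nub1 and 3251.8 to 3421.8 CPM in wildtype libraries). One of the lower hinge markers was nub itself, which the genotype targets. Without it 3 of 7 were higher and 3 lower (sum 3463.9 to 3606.3 CPM in nub1 and 2928.5 to 3078.5 CPM in wildtype libraries). Of 6 markers of the notum region 3 were higher and 0 lower, tup and caup with the smallest adjusted p (sum 738 to 798 CPM in nub1 and 660 to 695 CPM in wildtype libraries). All wing pouch, hinge and notum markers were detected.

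Of 7 myoblast markers 3 were higher and 2 lower, htl (higher) and Ama (lower) with the smallest adjusted p (sum 428 to 472 CPM in nub1 and 535 to 591 CPM in wildtype libraries). The lower sum rested on Ama, since the other 6 summed to 257 to 294 CPM in nub1 and 251 to 265 CPM in wildtype libraries. Of 5 tracheal markers 2 were higher, verm (log2 fold change 0.68) and serp (0.52), and 2 lower, trh (-0.49) and vvl (-0.49; sum 1709.1 to 1792.4 CPM in nub1 and 1524.0 to 1606.4 CPM in wildtype libraries). Of 7 haemocyte markers 1 was higher (NimC1) and 3 lower (srp, eater and He; sum 106 to 110 CPM in nub1 and 83.6 to 122 CPM in wildtype libraries). Of 5 fat body markers Lsp1alpha was higher and Fbp1 lower, the call of Fbp1 not holding with limma-voom (adjusted p = 0.0613) or when nub1 replicate 1 (edgeR adjusted p = 0.0532) or 3 (0.054) was left out (sum 21.6 to 26.5 CPM in nub1 and 17.9 to 51.9 CPM in wildtype libraries). All 6 salivary glue markers were lower, Sgs5 and Sgs7 with the smallest adjusted p (sum 1.92 to 2.71 CPM in nub1 and 7.16 to 8.96 CPM in wildtype libraries), and of 3 neuronal markers tested 2 were higher and 1 lower, Syt1 and brp with the smallest adjusted p (sum of 4 markers 43.2 to 43.7 CPM in nub1 and 38.5 to 42 CPM in wildtype libraries). No marker was at 0 in all libraries. The part of these markers in the values of the 9 genes was not tested.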

How the data were processed

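Of the series, the 3 nub1 and 3 wildtype RNA-seq libraries were used; the ATAC-seq and ChIP-seq samples were not analysed here. The deposited values are raw read counts per gene, with no normalization, from directional libraries per the labels' protocols. Per the submitters' processing notes, bcl2fastq, HISAT2, featureCounts, Bowtie2, deepTools and the build dm6 were used. The sources used here give neither the strand setting, nor the handling of multi-mapping reads, nor the annotation release. Symbols matched 17710 of 17807 gene IDs, and all 131 listed symbols; positions are from RefSeq, Release 6.

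Genes passing filterByExpr were scaled by TMM and tested with edgeR's quasi-likelihood test (robust, genotype as the only term, Benjamini-Hochberg adjustment over all 9186 genes). The SE is the log2 fold change divided by the square root of F, and 95% intervals use the fit's degrees of freedom. The work used edgeR 4.0.16, DESeq2 1.42.0 and limma 3.58.1 under R 4.3.3, and matplotlib 3.10.9. The members, the 5 pathway and 9 marker lists and the tests were chosen with earlier results of these data known. Named are the 9 genes, nub, pdm2, wg, dpp and hh, up to 5 called genes per pathway list and 2 per marker list with the smallest adjusted p, and the 3 genes most like sotv. Other genes, and the read ratios besides that of dally to dlp, were named after their values were seen. The reference used gives no exon lengths, so levels of different genes were not compared per length. Same-numbered libraries deviated together over 6796 genes (correlations of 0.141, 0.227 and 0.452 for numbers 1 to 3), each over 0.1, so blocked values are given where they change a call. Wildtype 2 with nub1 1 reached 0.311, so that only number 3 was singled out by its own correlation; the labels do not say what a number marks. The alternatives were other scalings, filters, tests, the block and leaving out libraries; dropping the pair numbered 3, and the marker sums without nub or Ama, were chosen after the data had been seen. Replicate pairs differed beyond sampling noise (chi-square per degree of freedom 4.15 to 32.1). The code was tested on simulated data. Intervals and floors cover counting error or the spread between libraries only.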

Additional observations from a re-analysis of the deposited data

How the results depend on the processing

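The calls of dlp, Sdc, sotv and Sulf1 as lower in nub1 held, at an adjusted p under 0.05, under all 9 alternative scalings, filters, tests and the replicate block, without each library in turn and without both libraries numbered 3. At an adjusted p under 0.01 the call of dlp was lost, leaving 3 members lower, with 1418 genes lower in all. The number of members higher was 1 (dally) with upper quartile scaling, with library sizes only and with the replicate block, and 0 to 1 without single libraries. The log2 fold change of dally was 0.09 with the upper quartile, 0.11 with library sizes only, 0.07 with the replicate block and 0.06 to 0.10 without single libraries. That of Notum with the replicate block was -0.16, and Notum was then called lower. The block also took the calls over all genes to 2451 higher and 2437 lower. Besides those of dally and Notum, it changed no call of the 9. Without single libraries Notum ranged over -0.23 to -0.08, botv over -0.11 to -0.05 and sfl over -0.07 to 0.00, and sfl was 0.02 without both libraries numbered 3; the cause was not tested. With library sizes only the calls over all genes were 2675 higher and 1815 lower, and the median of all genes shifted by 0.032. Without single libraries 1827 to 2094 genes were higher and 1726 to 1995 lower. Levels per length were not run, since exon lengths were not used here.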
